A study of Rattus norvegicus with 12 samples.

Results

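The transcripts of 10 genes of the epidermal growth factor (EGF) system were followed in PAC1 cells, a line of rat pulmonary artery smooth muscle cells, after depletion of 3 RNA-binding proteins that regulate splicing. The genes were taken by symbol as 3 receptors (Egfr, Erbb2 and Erbb3), 6 ligands (Hbegf, Areg, Ereg, Tgfa, Btc and Nrg1) and 1 intracellular inhibitor of the receptors (Errfi1). They are 10 of the 33294 rows of the count table, and all 10 were among the 18438 genes with enough counts to test. The data comprise 12 poly(A) RNA-seq libraries in 4 groups of 3. All groups were PAC1 cells that received 90 pmol of an siRNA by reverse transfection, the same siRNA again after 24 h, and harvest 48 h after that, per the labels, whereas the study's methods give longer intervals. The control group received a negative control siRNA named C2, and the others an siRNA against RBPMS (RBPMS-KD), RBFOX2 (RBFOX2-KD) or QKI (QKI-KD, gene symbol Qk). PAC1 is a single cultured line, and all groups were grown in medium with serum. The study describes the cells of its RBPMS, RBFOX2 and QK knockdown experiment as differentiated PAC1 cells. It reports that they were less differentiated than those of its other RNA-seq experiment.

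Ligands of this family are made as membrane-anchored precursors that metalloproteases of the ADAM family cut free, and they then bind receptor tyrosine kinases that pair with each other. EGFR binds HB-EGF, amphiregulin, epiregulin, TGF-alpha and betacellulin, ERBB3 binds neuregulins but signals mainly through its partners, and ERBB2 has no known ligand of its own and serves as the preferred partner. In vascular smooth muscle, HB-EGF and epiregulin are known as mitogens, and receptor activity induces its own brakes, among them the product of Errfi1 (MIG6), which binds the kinase domain.

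The groups are defined by 4 siRNAs, 1 per target in the study's reagent list, and their sense strands are shown 5' to 3' for that reason.
C2: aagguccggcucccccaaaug
RBPMS: ggcggcaaagccgagaaggcgaaca
RBFOX2: gcaaugguucagccuuuua
QK: ggacuuacagcuaaacaac
With 1 siRNA per target, an effect of the reagent and an effect of losing the protein cannot be told apart.

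Levels are given as CPM, counts scaled to 1 M per library after scaling of the library totals by the TMM method. They are compared between groups for 1 gene and not between genes, since transcript lengths were not used. Library totals were 111 to 152 M counts. The targeted transcripts fell as labelled, Rbpms from 40.7 ± 2.60 CPM (mean ± SD, n = 3) in control to 7.21 ± 0.301 in RBPMS-KD, Rbfox2 from 154 ± 4.37 to 37.3 ± 0.943 in RBFOX2-KD and Qk from 233 ± 7.05 to 26.6 ± 0.649 in QKI-KD. Rbpms was also lower in RBFOX2-KD (23.1 ± 1.90 CPM) and in QKI-KD (29.0 ± 0.957 CPM). Qk was lower in RBFOX2-KD (174 ± 1.32 CPM) and higher in RBPMS-KD (265 ± 10.6 CPM). Rbfox2 was slightly lower in RBPMS-KD (142 ± 8.77 CPM) and in QKI-KD (139 ± 2.35 CPM). The 8 smooth muscle markers were detected in all libraries, and their summed level was 2100 to 2160 CPM in control, 1060 to 1170 in RBPMS-KD, 815 to 914 in RBFOX2-KD and 1420 to 1510 in QKI-KD. Defining markers of other cell types were at or near 0, with at most 4 counts in any library for Ptprc, Adgre1 and Esrp1 and at most 6 for Krt5 and Sox10. Libraries of a group differed by more than counting noise, and RBPMS-KD 2 and control 3 stood farthest from their groups, with a chi-square per degree of freedom of 45.6 to 57.8 and 15.5 to 21.5 against the others, compared with 4.64 to 11.2 for all remaining pairs.

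Each knockdown moved most of the 10 transcripts. In the text, "rose" and "fell" mean an adjusted p under 0.05 in edgeR's quasi-likelihood test with Benjamini-Hochberg adjustment over all 18438 genes, and "past the fold" means an absolute log2 fold change above 1 as well. In RBPMS-KD 7 members rose and 2 fell, where 30.4% of all genes tested rose and 29.0% fell (59.4% called), and 2 members were past the fold against 9.66% of all genes. In RBFOX2-KD 7 rose and 3 fell, where 30.1% of all genes rose and 30.1% fell (60.3% called), and 3 were past the fold against 11.7%. In QKI-KD 7 rose and 2 fell, where 32.9% of all genes rose and 34.0% fell (66.9% called), and 4 were past the fold against 17.5%. Most genes tested were called in each knockdown, so the members are described by the size and direction of their changes. The median log2 fold change of the 10 members was 0.48, 0.51 and 0.45 in RBPMS-KD, RBFOX2-KD and QKI-KD, beside 0.0085, 0.015 and 0.0070 over all genes tested. All members past the fold rose, a call that 5.16%, 6.96% and 8.28% of all genes met in the same order. The 3 comparisons share the same 3 control libraries, so a low or high control value enters all of them. The members were chosen with earlier results of these data known, so these counts and medians describe the list and do not test it. In bulk RNA, fewer cells with a transcript and less of it per cell cannot be told apart. Of the 8 smooth muscle markers, 6 fell and 2 rose in RBPMS-KD, 5 fell and 2 rose in RBFOX2-KD, and 5 fell and 2 rose in QKI-KD. Acta2 fell by 1.65, 2.11 and 1.16 on the log2 scale, while Myh11 rose by 0.34, 1.05 and 0.19, and the part of these markers in the members' changes was not tested.

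Ligand transcripts accounted for most of the rises. All 6 ligands rose in RBPMS-KD, 5 rose and 1 fell in RBFOX2-KD, and 5 rose in QKI-KD, where Btc was not called. Hbegf and Ereg were past the fold in all 3 knockdowns, while Areg (QKI-KD) and Btc (RBFOX2-KD) passed it in 1 each.

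Hbegf, which encodes heparin-binding EGF-like growth factor, was at 19.3, 21.4 and 18.5 CPM in the 3 control libraries. It was at 48.8, 47.3 and 48.4 CPM in RBPMS-KD, at 51.9, 52.1 and 51.5 CPM in RBFOX2-KD and at 48.5, 48.4 and 51.1 CPM in QKI-KD. Every knockdown library lay far above the highest control library, 21.4 CPM, and the 9 knockdown libraries spanned a narrow range. Against control, the log2 fold change was 1.29 in RBPMS-KD (SE 0.047, adjusted p = 5.48e-13), 1.39 in RBFOX2-KD (SE 0.047, adjusted p = 1.16e-13) and 1.32 in QKI-KD (SE 0.047, adjusted p = 1.09e-13). Between knockdowns no difference in Hbegf was called, although RBFOX2-KD lay above both RBPMS-KD and QKI-KD without overlap. The 95% interval of the log2 difference ran from -0.20 to -0.010 for RBPMS-KD against RBFOX2-KD (adjusted p = 0.0560), from -0.13 to 0.062 for RBPMS-KD against QKI-KD (adjusted p = 0.528) and from -0.025 to 0.17 for RBFOX2-KD against QKI-KD (adjusted p = 0.174). RBPMS-KD against RBFOX2-KD became called in 6 of 15 alternatives, with the adjusted p down to 0.00109. Among all genes tested, 683 rose more than Hbegf in RBPMS-KD, 787 in RBFOX2-KD and 1062 in QKI-KD.

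Ereg, the epiregulin gene, had the largest change of the 10 members in each knockdown. The control libraries held 6.35, 6.71 and 5.24 CPM, RBPMS-KD 30.0, 29.8 and 31.9 CPM, RBFOX2-KD 21.6, 22.2 and 22.2 CPM, and QKI-KD 33.3, 29.4 and 33.6 CPM. All knockdown libraries were well above all control libraries, and the RBFOX2-KD libraries lay below those of the other knockdowns without overlap. Ereg rose 5.01-fold in RBPMS-KD (log2 fold change 2.32, SE 0.074, adjusted p = 1.11e-13), 3.60-fold in RBFOX2-KD (1.85, SE 0.074, adjusted p = 1.09e-12) and 5.26-fold in QKI-KD (2.40, SE 0.074, adjusted p = 1.69e-14). Only 131, 371 and 274 of the 18438 genes rose more in these knockdowns. Compared directly, the level in RBFOX2-KD was lower than in RBPMS-KD by a log2 difference of 0.48 (adjusted p = 1.25e-05), and lower than in QKI-KD, where RBFOX2-KD against QKI-KD gave -0.55 (adjusted p = 1.37e-06). RBPMS-KD and QKI-KD overlapped, with an interval of -0.21 to 0.071 for their difference (adjusted p = 0.376).

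**Figure D1:**
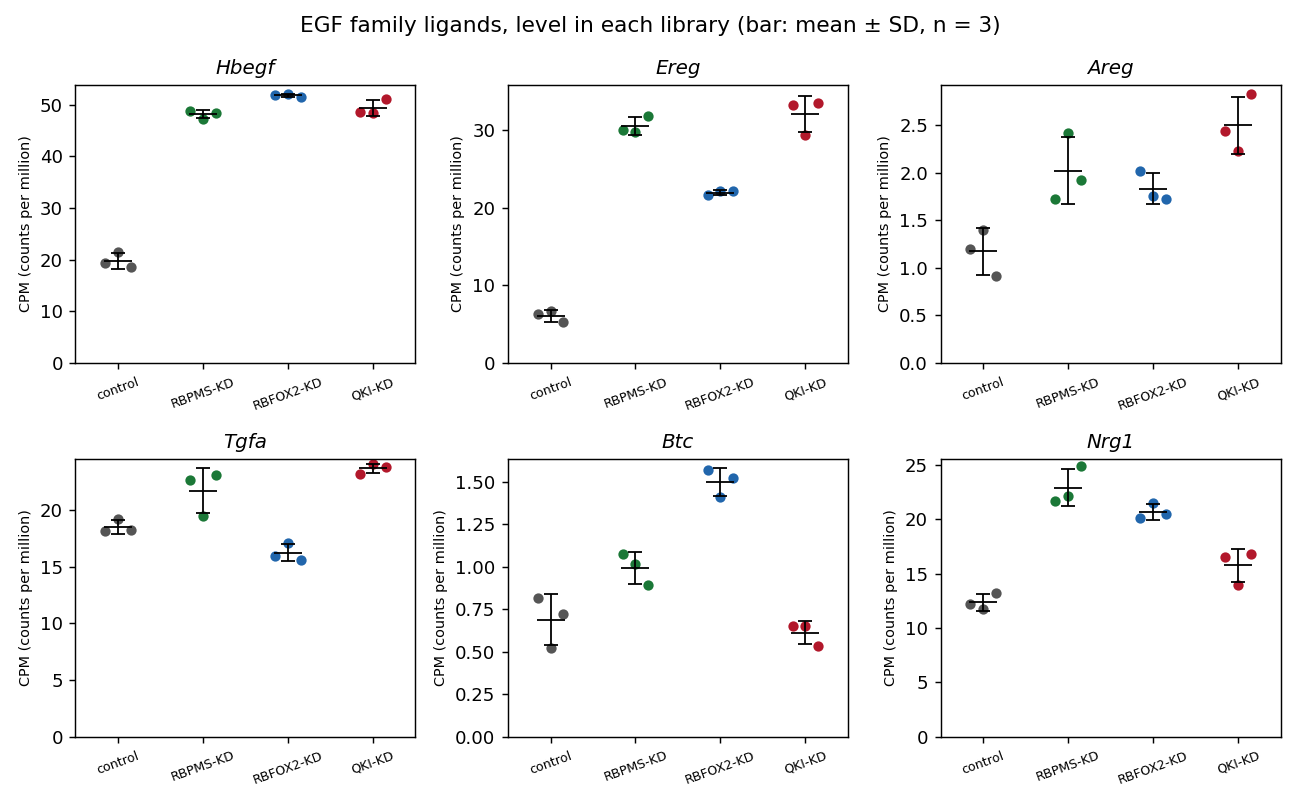
Level of the 6 ligand transcripts in each library (CPM, linear axis from 0, a separate scale per gene), with points for the 3 libraries of control, RBPMS-KD, RBFOX2-KD and QKI-KD and a bar at each group mean with its SD. Hbegf sits between 47.3 and 52.1 CPM in all 9 knockdown libraries against 18.5 to 21.4 in control, Ereg is lowest of the knockdowns in RBFOX2-KD, Tgfa is below control in RBFOX2-KD, and Btc is highest there.

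Areg encodes amphiregulin and was near the low end of what these libraries resolve, with 147, 209 and 125 counts in control. Its level was 1.20, 1.40 and 0.918 CPM in control, 1.73, 2.42 and 1.93 in RBPMS-KD, 2.02, 1.76 and 1.73 in RBFOX2-KD, and 2.44, 2.24 and 2.83 in QKI-KD. All knockdown libraries were above all control libraries, by a smaller margin than for Hbegf or Ereg. The log2 fold change was 0.79 in RBPMS-KD (adjusted p = 4.27e-04), 0.64 in RBFOX2-KD (adjusted p = 0.00234) and 1.09 in QKI-KD (adjusted p = 1.04e-05). Areg was lower in RBFOX2-KD than in QKI-KD (log2 difference -0.45, adjusted p = 0.0155), a call that was lost without RBFOX2-KD 3 (adjusted p = 0.0514) or without QKI-KD 3 (adjusted p = 0.0730). Neither of the other direct comparisons was called, with intervals of -0.18 to 0.48 for RBPMS-KD against RBFOX2-KD and -0.62 to 0.025 for RBPMS-KD against QKI-KD.

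Tgfa, which encodes TGF-alpha, moved by less and in opposite directions. It was at 18.2, 19.2 and 18.2 CPM in control, 22.7, 19.5 and 23.1 in RBPMS-KD, 16.0, 17.1 and 15.6 in RBFOX2-KD, and 23.2, 24.0 and 23.8 in QKI-KD. The RBFOX2-KD libraries were all below control and the QKI-KD libraries all above it, while RBPMS-KD 2 lay just above the highest control library. Tgfa rose in RBPMS-KD (log2 fold change 0.23, adjusted p = 0.00311) and QKI-KD (0.35, adjusted p = 4.44e-05), and fell in RBFOX2-KD (-0.19, adjusted p = 0.0104). With library totals in place of TMM scaling, the fall in RBFOX2-KD was no longer called (-0.14, adjusted p = 0.0595). Compared directly, the log2 difference was 0.42 for RBPMS-KD against RBFOX2-KD (adjusted p = 1.22e-05) and -0.54 for RBFOX2-KD against QKI-KD (adjusted p = 2.85e-07). RBPMS-KD against QKI-KD was not called (interval -0.25 to -0.0012, adjusted p = 0.0749), and became called in 6 of 15 alternatives.

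Btc, the betacellulin gene, had the fewest counts of the members, with 100, 78 and 98 in the control libraries. Its level was 0.817, 0.524 and 0.720 CPM in control, 1.07, 1.01 and 0.892 in RBPMS-KD, 1.57, 1.41 and 1.52 in RBFOX2-KD, and 0.650, 0.653 and 0.532 in QKI-KD. RBFOX2-KD was highest without overlap, RBPMS-KD lay between it and control, and QKI-KD overlapped control. Btc rose in RBFOX2-KD by a log2 fold change of 1.13 (adjusted p = 1.35e-05) and in RBPMS-KD by 0.54 (adjusted p = 0.0125), the latter lost without control 2 (0.37, adjusted p = 0.0750). In QKI-KD the change was -0.16, with an interval of -0.54 to 0.22 (adjusted p = 0.451). All 3 direct comparisons were called, and RBFOX2-KD against QKI-KD gave 1.29 (adjusted p = 2.71e-06), the only member past the fold between knockdowns.

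Nrg1 encodes neuregulin 1, a ligand of ERBB3 and ERBB4 and not of EGFR. Its level was 12.2, 11.7 and 13.2 CPM in control, 21.7, 22.1 and 24.9 in RBPMS-KD, 20.1, 21.5 and 20.5 in RBFOX2-KD, and 16.5, 13.97 and 16.8 in QKI-KD. The QKI-KD libraries lay between control and the other knockdowns without overlap. Nrg1 rose by a log2 fold change of 0.89 in RBPMS-KD (adjusted p = 9.06e-09), 0.74 in RBFOX2-KD (adjusted p = 7.84e-08) and 0.35 in QKI-KD (adjusted p = 3.32e-04). It was lower in QKI-KD than in RBPMS-KD by 0.54 on the log2 scale (adjusted p = 3.50e-06) and than in RBFOX2-KD by 0.39 (adjusted p = 9.06e-05), while RBPMS-KD against RBFOX2-KD was not called (interval 0.0012 to 0.29, adjusted p = 0.0796).

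Receptor transcripts moved the other way, apart from Erbb3. Egfr and Erbb2 fell in all 3 knockdowns, though by less than the fold threshold in each, and Erbb3 rose in RBFOX2-KD and QKI-KD.

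Egfr was at 56.4, 60.8 and 68.8 CPM in control, 58.5, 50.2 and 55.1 in RBPMS-KD, 48.8, 49.3 and 47.2 in RBFOX2-KD, and 32.7, 33.4 and 34.9 in QKI-KD. The QKI-KD libraries were lowest and apart from all others, RBFOX2-KD lay below both control and RBPMS-KD, and RBPMS-KD overlapped control. Egfr fell by 0.88 on the log2 scale in QKI-KD (SE 0.063, adjusted p = 1.31e-09) and by 0.36 in RBFOX2-KD (adjusted p = 9.41e-05). The fall in RBPMS-KD was -0.19 (adjusted p = 0.0172) and rested on single libraries: it was -0.11 without control 3 (adjusted p = 0.130) and -0.13 without RBPMS-KD 2 (adjusted p = 0.0601). Egfr was lower in QKI-KD than in RBPMS-KD (0.70, RBPMS-KD against QKI-KD, adjusted p = 4.41e-08) and than in RBFOX2-KD (0.53, adjusted p = 1.05e-06).

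Erbb2 was at 45.1, 48.3 and 49.6 CPM in control, 35.7, 30.7 and 33.0 in RBPMS-KD, 45.0, 41.8 and 43.0 in RBFOX2-KD, and 31.7, 33.5 and 30.7 in QKI-KD. The RBPMS-KD and QKI-KD libraries overlapped each other and lay below all others, and the highest RBFOX2-KD library almost reached the lowest control. Erbb2 fell by 0.53 in RBPMS-KD (adjusted p = 2.38e-07) and by 0.58 in QKI-KD (adjusted p = 4.75e-08) on the log2 scale, and their difference was not called (interval -0.066 to 0.17, adjusted p = 0.444). The change in RBFOX2-KD, -0.14 (adjusted p = 0.0331), was lost in 7 of 15 alternatives, among them the fits without control 2, control 3, RBFOX2-KD 2 or RBFOX2-KD 3, where the adjusted p reached up to 0.183 over all alternatives. Erbb2 was lower in RBPMS-KD than in RBFOX2-KD (-0.39, adjusted p = 1.13e-05), and RBFOX2-KD against QKI-KD gave 0.44 (adjusted p = 1.52e-06).

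Erbb3, the neuregulin receptor with an impaired kinase, was at 3.05, 2.5 and 2.67 CPM in control, 3.47, 2.84 and 2.96 in RBPMS-KD, 3.68, 2.97 and 3.97 in RBFOX2-KD, and 5.96, 6.19 and 5.89 in QKI-KD. The QKI-KD libraries were far above the rest, and the other 3 groups overlapped. In QKI-KD Erbb3 rose by 1.14 on the log2 scale (SE 0.11, adjusted p = 5.72e-08), the only receptor past the fold. The rise in RBFOX2-KD was 0.37 (adjusted p = 0.00835), lost without RBFOX2-KD 3 (0.27, adjusted p = 0.0630), and RBPMS-KD was not called (interval -0.070 to 0.41, adjusted p = 0.212). QKI-KD was above RBPMS-KD (-0.96, RBPMS-KD against QKI-KD, adjusted p = 6.09e-07) and above RBFOX2-KD (-0.77, adjusted p = 5.48e-06).

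Some markers of other cell types also moved, most of all in QKI-KD, where Erbb3 and Egfr changed most. The summed level of 5 leucocyte markers was 1.48 to 1.57 CPM in control and 5.43 to 5.98 in QKI-KD, almost all of it Csf1r and Cd68, with 2 of the 5 at or under 3 counts in each QKI-KD library. The 5 epithelial markers summed to 0.131 to 0.228 CPM in control and 0.686 to 1.06 in QKI-KD, with Epcam at 36 to 55 counts and Cdh1 at 40 to 60 counts. The Schwann cell list summed to 2.42 to 3.19 CPM in control and 1.82 to 2.00 in QKI-KD, and the endothelial list to 8.73 to 10.8 and 6.42 to 6.75 CPM, but its members went both ways in QKI-KD, where Cdh5 fell by 1.18 and Pecam1 and Tek rose by 1.27 and 0.66. In RBPMS-KD Pecam1 rose by 1.70 and Csf1r by 1.17, and S100b fell by 1.79, while in RBFOX2-KD Cdh5 fell by 1.10. Sums of the leucocyte list were 2.01 to 2.46 CPM in RBPMS-KD and 1.69 to 2.34 in RBFOX2-KD, and those of the epithelial list 0.132 to 0.164 and 0.213 to 0.231. Erbb3 is itself a gene that epithelial cells express strongly, and the part of these markers in its rise and in the other members' changes was not tested.

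**Figure D2:**
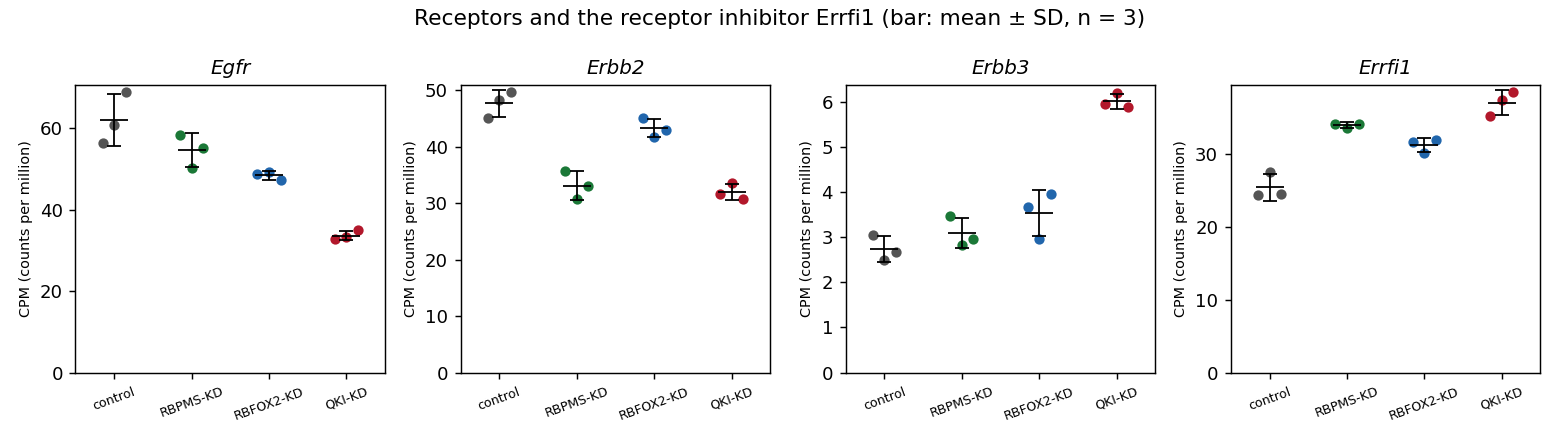
Level of Egfr, Erbb2, Erbb3 and Errfi1 in each library (CPM, linear axis from 0, a separate scale per gene), with points for the 3 libraries of a group and a bar at each group mean with its SD. QKI-KD holds the lowest Egfr values (32.7 to 34.9 CPM) and the highest Erbb3 values (5.89 to 6.19 CPM), and Errfi1 is above control in all 9 knockdown libraries.

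Errfi1, the inducible inhibitor MIG6, rose in all 3 knockdowns. The libraries held 24.4, 27.6 and 24.5 CPM in control, 34.3, 33.6 and 34.3 in RBPMS-KD, 31.8, 30.2 and 32.0 in RBFOX2-KD, and 35.3, 37.5 and 38.6 in QKI-KD. All 9 knockdown libraries lay above all control libraries, with the groups in the order control, RBFOX2-KD, RBPMS-KD and QKI-KD. The log2 fold change was 0.41 in RBPMS-KD (SE 0.051, adjusted p = 1.75e-06), 0.29 in RBFOX2-KD (SE 0.050, adjusted p = 7.40e-05) and 0.54 in QKI-KD (SE 0.050, adjusted p = 4.16e-08). RBFOX2-KD against QKI-KD gave -0.25 (adjusted p = 3.24e-04), RBPMS-KD against QKI-KD gave -0.13 (adjusted p = 0.0391), which was lost in 5 of 15 alternatives, and RBPMS-KD against RBFOX2-KD was not called (interval 0.014 to 0.23, adjusted p = 0.0515).

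For the direct comparisons, the number of members called is given beside the share of all genes called, and a member not called may still differ. Hbegf, Nrg1 and Errfi1 were not called in RBPMS-KD against RBFOX2-KD, though their 95% intervals excluded 0. In RBPMS-KD against RBFOX2-KD 5 members were called and none was past the fold, where 56.7% and 7.52% of all genes were. In RBPMS-KD against QKI-KD 5 were called and none was past the fold, beside 61.0% and 12.2%, and with library totals 9 were called. In RBFOX2-KD against QKI-KD 9 were called and 1 was past the fold, beside 68.5% and 18.4%, with Hbegf the member not called. The 2 counts of 0 do not depend on the p used, since no member had an absolute log2 fold change above 1 there. They were also 0 in DESeq2. In RBPMS-KD against QKI-KD 1 member was past the fold with library totals, with a mean of at least 200 counts and without RBPMS-KD 1. RBPMS-KD against RBFOX2-KD called Egfr (0.17, adjusted p = 0.0277), but this was lost in 7 of 15 alternatives. Without RBPMS-KD 2, 7 members were called between RBPMS-KD and RBFOX2-KD in place of 5.

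**Figure D3:**
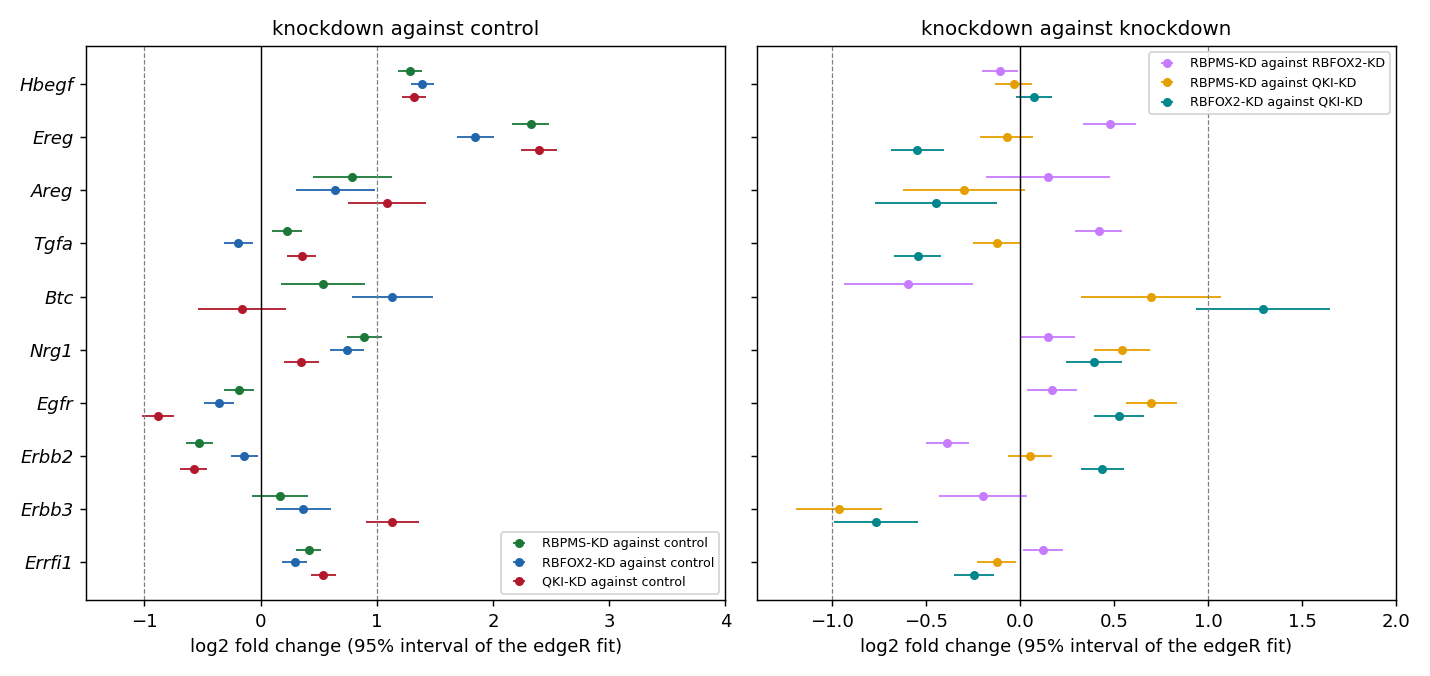
Log2 fold change of the 10 members in each knockdown against control (left) and between knockdowns (right), with points at the edgeR estimate, bars for its 95% interval, a solid line at 0 and dashed lines at -1 and 1. Hbegf lies at 1.29 to 1.39 in all 3 knockdowns with differences between them of at most 0.11, whereas Btc spans -0.16 to 1.13 and Erbb3 0.17 to 1.14.

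Btc, Areg and Ereg are neighbours. In the RefSeq table of the assembly GRCr8, which is not the build of the counts, Btc, Areg, Ereg, Epgn and Mthfd2l follow each other on chromosome 14, so the ligand genes form a cluster. Btc, Areg and Ereg all rose in RBPMS-KD, by 0.54, 0.79 and 2.32 on the log2 scale. They also all rose in RBFOX2-KD, by 1.13, 0.64 and 1.85. In QKI-KD Ereg and Areg rose past the fold while Btc was not called. Epgn, the gene of the ligand epigen, was detected with 18 to 30 counts in control and 48 to 66 in RBPMS-KD, where it rose by 1.40 (adjusted p = 0.00167). In QKI-KD Epgn overlapped control and, like Btc, was not called (0.48, interval -0.27 to 1.23, adjusted p = 0.242).

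Upstream sequence of the 250 bases before the annotated start was searched for short elements in the 7 members that the RefSeq promoter table (GRCr8) holds. Ereg, Erbb3 and Nrg1 were not in it. Searched on both strands, the cyclic AMP response element TGACGTCA was found in 1 of the 7 (Areg) and in 1.59% of 33469 promoters, the AP-1 site TGANTCA in none of the 7 and in 6.34%, the GC box GGGCGG in 6 of the 7 and in 30.5%, and TATAAA in 2 of the 7 (Areg and Errfi1) and in 12.9%. None of these letters overlap each other in the windows shown. The window of Areg and that of Errfi1, the members with the most kinds of match, are printed 5' to 3' with the matches in capitals. That of Areg is on the minus strand at chr14:17265642-17265891, with TGACGTCA 91, the GC box 82 and TATAAA 61 bases before the start. That of Errfi1 is on the plus strand at chr5:166606591-166606840, with the GC box 72 and TATAAA 35 bases before the start.
Areg: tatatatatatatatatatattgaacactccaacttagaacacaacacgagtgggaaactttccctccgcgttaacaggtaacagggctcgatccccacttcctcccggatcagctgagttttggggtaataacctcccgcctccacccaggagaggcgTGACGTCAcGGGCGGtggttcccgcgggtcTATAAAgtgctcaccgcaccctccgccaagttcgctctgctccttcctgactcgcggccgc
Errfi1: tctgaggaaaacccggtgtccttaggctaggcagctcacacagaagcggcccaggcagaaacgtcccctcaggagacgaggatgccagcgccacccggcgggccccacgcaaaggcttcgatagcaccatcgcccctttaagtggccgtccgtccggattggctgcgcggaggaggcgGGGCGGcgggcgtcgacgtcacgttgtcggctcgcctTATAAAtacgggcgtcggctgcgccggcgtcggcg
A match describes the letters of the window only, and the libraries carry no measurement of binding there.

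The wider pathway was read from 43 further genes grouped by role, of which 41 were tested (Nrg2 and Nrg3 had too few counts). In RBPMS-KD 16 rose and 19 fell, in RBFOX2-KD 17 rose and 15 fell, and in QKI-KD 11 rose and 17 fell, so the rises of the ligands were not matched by a common direction of the pathway. Their median log2 fold change was -0.012, 0.0048 and -0.047, close to that of all genes.

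Of the 4 further ligands and receptors tested, Erbb4, a receptor of neuregulins, fell in every knockdown. It was at 5.24, 5.34 and 5.45 CPM in control, 3.56, 2.95 and 3.31 in RBPMS-KD, 2.54, 2.76 and 2.62 in RBFOX2-KD, and 1.80, 1.53 and 1.81 in QKI-KD, with no overlap between any groups. Erbb4 fell by 0.71 in RBPMS-KD (adjusted p = 2.28e-06), by 1.02 in RBFOX2-KD (adjusted p = 2.62e-08) and by 1.64 in QKI-KD (adjusted p = 5.76e-11) on the log2 scale. Epgn rose in RBFOX2-KD (1.01, adjusted p = 0.0166), a call lost without control 3 or without RBFOX2-KD 1 (adjusted p = 0.0728 and 0.102). Nrg4, another neuregulin gene, rose in QKI-KD (1.11, adjusted p = 3.24e-04).

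Of 8 genes for the release and presentation of ligands, 3 rose and 5 fell in RBPMS-KD, 2 rose and 5 fell in RBFOX2-KD, and 1 rose and 3 fell in QKI-KD. Cd44, whose product is a cell surface receptor that can hold HB-EGF, was the gene that rose past the fold in each. It went from 229, 250.4 and 210.5 CPM in control to 689, 716 and 712 in RBPMS-KD, 620.2, 636 and 629 in RBFOX2-KD, and 612, 596 and 638 in QKI-KD, with log2 fold changes of 1.62, 1.45 and 1.42 (adjusted p = 5.61e-14, 1.02e-13 and 6.12e-14). Adam19, a metalloprotease, fell by 0.56 in RBPMS-KD (adjusted p = 1.86e-07), by 1.38 in RBFOX2-KD (adjusted p = 1.84e-12) and by 0.46 in QKI-KD (adjusted p = 1.45e-06). Adam12, another metalloprotease, fell by 0.54, 0.28 and 1.08 in the same order (adjusted p = 3.01e-06, 0.00188 and 2.89e-10), so in QKI-KD it fell more than Adam19. Cd9, a tetraspanin that binds the HB-EGF precursor, fell by 1.40 in QKI-KD (adjusted p = 3.54e-14), from 234 ± 9.88 to 88.8 ± 2.71 CPM.

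Of 9 adaptors and effectors, 1 rose and 6 fell in RBPMS-KD, 2 rose and 3 fell in RBFOX2-KD, and 2 rose and 4 fell in QKI-KD. Sos2, an exchange factor for RAS, fell in each, by 0.47, 0.67 and 1.13 (adjusted p = 4.81e-07, 5.30e-09 and 4.01e-12). Gab2, a docking protein, fell by 0.77 in RBPMS-KD, 0.82 in RBFOX2-KD and 0.68 in QKI-KD (adjusted p = 1.17e-10, 3.91e-11 and 2.35e-10). Eps8, a substrate of EGFR, fell by 1.06 in QKI-KD (adjusted p = 2.68e-12).

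The 8 receptor inhibitors other than Errfi1 were split, with 4 rising and 3 falling in RBPMS-KD and in RBFOX2-KD, and 3 rising and 5 falling in QKI-KD. Lrig1, whose product promotes turnover of ERBB receptors, fell by 0.68 in RBPMS-KD, 0.55 in RBFOX2-KD and 0.92 in QKI-KD (adjusted p = 1.42e-09, 1.67e-08 and 1.30e-11). Socs5, a negative regulator of EGFR, fell by 1.48 in QKI-KD (adjusted p = 1.26e-15), from 225 ± 4.12 to 80.7 ± 2.22 CPM. Ptpn1, a tyrosine phosphatase, rose by 0.65 in RBPMS-KD, 0.55 in RBFOX2-KD and 0.18 in QKI-KD (adjusted p = 3.79e-11, 2.34e-10 and 1.51e-04).

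Of 12 transcripts that growth factor signalling is known to induce, 7 rose and 4 fell in RBPMS-KD, 7 rose and 3 fell in RBFOX2-KD, and 4 rose and 4 fell in QKI-KD. In RBPMS-KD Ier3 and Myc had the largest rises, by 1.41 and 1.29 (adjusted p = 5.07e-11 and 3.79e-13), and Myc went from 35.9 ± 0.416 to 88.1 ± 0.735 CPM, while Egr1 fell by 1.05 (adjusted p = 2.35e-08) and Dusp6 by 0.69 (adjusted p = 3.78e-10), a pair named after their values were seen. In RBFOX2-KD Egr1 and Fos, immediate early transcription factors, had the largest changes, and fell by 1.04 and 1.03 (adjusted p = 2.34e-08 and 2.29e-06). In QKI-KD Dusp6, a phosphatase of ERK and itself induced by it, fell by 1.34 (adjusted p = 3.24e-14) from 131 ± 7.80 to 51.8 ± 1.44 CPM, and Fos fell by 1.04 (adjusted p = 1.56e-06). Egr1 also fell by 0.50 in QKI-KD, and Dusp6 by 0.20 in RBFOX2-KD (adjusted p = 8.80e-05 and 4.83e-04). Other transcripts of this role rose by more. In QKI-KD Ier3, Dusp5 and Plaur rose by 0.92, 0.88 and 0.87. In RBFOX2-KD Myc, Phlda1 and Fosl1 rose by 0.78, 0.73 and 0.53, and in RBPMS-KD Fosl1 and Phlda1 rose by 1.00 and 0.94. These falls and rises were also named after their values were seen.

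**Figure D4:**
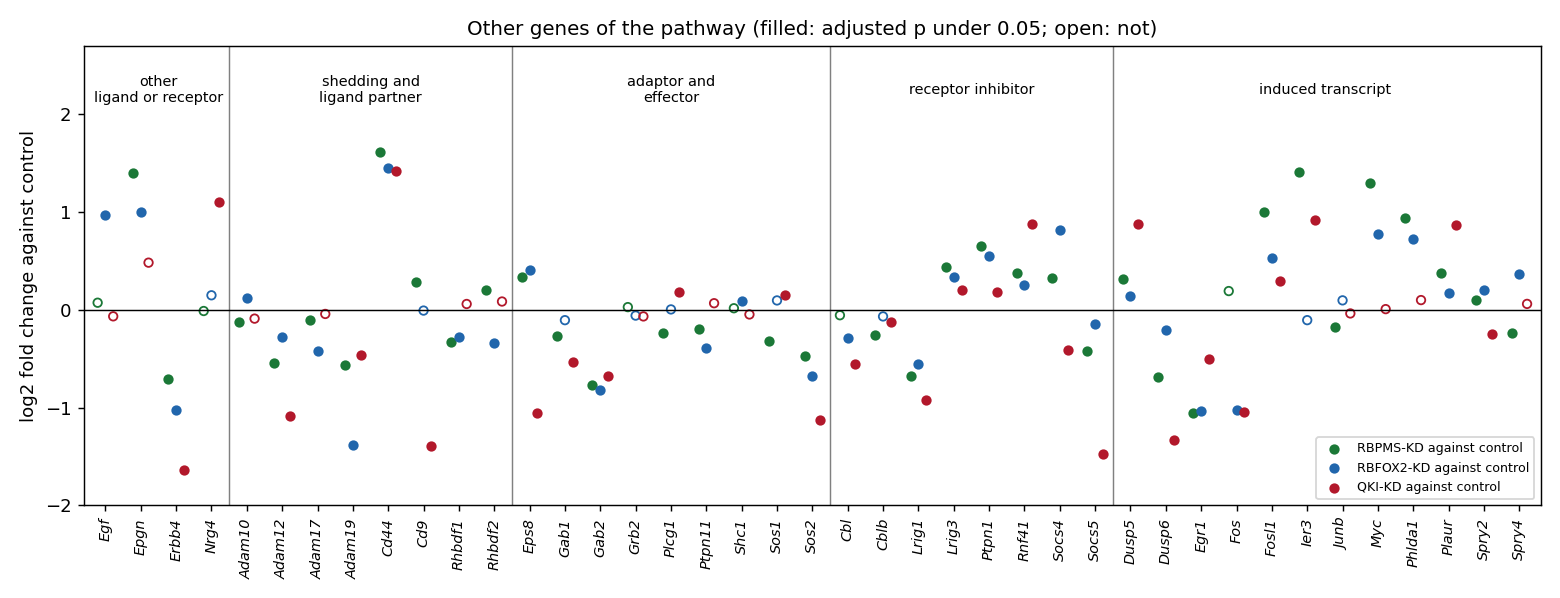
Log2 fold change against control of the 41 pathway genes tested, by role, in RBPMS-KD, RBFOX2-KD and QKI-KD, with filled points for genes at an adjusted p under 0.05 and open points for the others. Erbb4 lies below 0 and Cd44 above 1 in all 3 knockdowns, while the roles as a whole spread to both sides of 0.

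Levels over the 12 libraries were also compared between genes, as a description on values that share groups, libraries and scaling. Among the members, Pearson's r of log2 CPM was 0.96 for Hbegf and Ereg, 0.94 for Ereg and Errfi1, and -0.93 for Egfr and Erbb3. Among 10706 other genes averaging 5 CPM or more, the pattern most like that of Hbegf was that of Azin1 (r = 0.997) and Pi4k2b (0.996), and for Ereg it was Gtf2h1 (0.997) and Ppp1r2 (0.997). For Egfr they were Mrc2 (0.989) and Dipk2a (0.988), for Erbb2 Trappc10 (0.986) and Clstn1 (0.985), for Tgfa Slain2 (0.987) and Utp15 (0.976), and for Nrg1 Cdv3 (0.973) and Lrrfip1 (0.971). For Areg they were Mad2l2 (0.971) and Inpp1 (0.96), for Errfi1 Grhl2 (0.973) and Ncaph2 (0.972), and for Erbb3 the unnamed locus LOC120097118 (0.977) and Ppp1r16a (0.968). Btc, under 1 CPM in mean, was not searched. With 4 groups of closely agreeing libraries, any gene whose group means follow the same order and spacing can reach such a value.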

How the data were processed

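RNA was poly(A)-selected and made into 12 directional libraries. The submitters' notes name STAR 2.5.2a and the build mRatBN7.2, and the study's methods name a later STAR, featureCounts, noisyR and quantile normalisation. They also describe subsampling of all libraries to 1 depth, whereas the totals of the deposited counts differ between libraries and exceed that depth. The authors deposited raw counts per gene for 33294 symbols and a normalised signal for 22320 of them, whose smallest value was 5. Handling of multi-mapped reads and of strand in the counting is not given in the sources used here. Of count values from 1 to 19, 68.1% were even, against 50.9% above 1000, so a fit on halved counts was run. Groups and replicate numbers came from the titles. No label says that the libraries of a group came from separate cultures, while the study's methods state that each condition had biological replicates. The p-values measure the spread between these samples.

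The test was that of edgeR 4.0.16 under R 4.3.3 (filterByExpr, TMM, glmQLFit and glmQLFTest, two-sided, all 12 libraries in 1 fit), with adjustment over 18438 genes. An SE was the absolute log2 fold change divided by the square root of F. With 3 libraries against 3, an exact permutation test cannot give a p below 0.1. The script was tested on simulated data. Totals were 111 to 152 M counts, which may not be numbers of independent fragments, given the share of even values. Alternatives were RLE factors, library totals, no filter, a mean of at least 200 counts, halved counts, the 6 libraries compared, a replicate block, each library left out, DESeq2 1.42.0, and limma 3.58.1 on log2 of the normalised table plus 1. The members and lists were chosen with earlier results of these data known. Named by rule were the members, from the 2 pathway genes per role and comparison with the largest called change those of the comparisons with control, and the 2 genes most like each member of at least 1 CPM in mean. Some pathway genes named by rule for 1 knockdown were also given for the others. Adam12, Dusp5, Plaur, Phlda1 and Fosl1 were added after their values were seen. siRNA sequences are the study's, promoters are from RefSeq. Splicing was not analysed here.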

Additional observations from a re-analysis of the deposited data

Results flagged for a closer look

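Tgfa differed between knockdowns in direction. Its log2 fold change against control was 0.23 in RBPMS-KD and 0.35 in QKI-KD but -0.19 in RBFOX2-KD, and the difference itself was called by edgeR's quasi-likelihood test, at 0.42 for RBPMS-KD against RBFOX2-KD (adjusted p = 1.22e-05) and -0.54 for RBFOX2-KD against QKI-KD (adjusted p = 2.85e-07). Both differences kept their direction and call in all 15 alternatives, from 0.32 to 0.49 and from -0.66 to -0.52. The fall from control in RBFOX2-KD was called in 14 of 15.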

How the results depend on the processing

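The direction of every called change of a member against control or between knockdowns held in all alternatives run: of 894 member values, 844 stayed on their side of the threshold, 27 lost a call, 23 gained one and 0 called values changed sign. At an adjusted p under 0.05 alone, 9, 10 and 9 members were called in RBPMS-KD, RBFOX2-KD and QKI-KD against control, in place of 2, 3 and 4 with the fold, and 5, 5 and 9 in place of 0, 0 and 1 for RBPMS-KD against RBFOX2-KD, RBPMS-KD against QKI-KD and RBFOX2-KD against QKI-KD. With a library left out, these counts against control were 8 to 9, 8 to 10 and 9, and the count in RBPMS-KD was 8 without RBPMS-KD 2, control 2 or control 3. RBPMS-KD against QKI-KD had 1 member past the fold with library totals (Erbb3, -1.10), with a mean of at least 200 counts (Erbb3, -1.01) and without RBPMS-KD 1, a range of 0 to 1 over the libraries left out. RBFOX2-KD against QKI-KD had 0 with a mean of at least 200 counts, because Btc was then not tested. Leaving out a library gave 2 to 3 past the fold in RBFOX2-KD and 3 to 4 in QKI-KD. Library totals shifted the median of all genes by -0.13 in RBPMS-KD against QKI-KD, where 9 members in place of 5 were then called. The reversed values were Cd44 in RBPMS-KD against RBFOX2-KD (-0.033, normalised table), Grb2 in RBPMS-KD against RBFOX2-KD (-0.012) and against QKI-KD (-0.035) with library totals, and Rbfox2 in RBPMS-KD against QKI-KD (-0.10, library totals); the cause was not tested. No pairing of libraries by replicate number was seen. Of 18 same-numbered pairs, 4 had deviations correlated above 0.1 (range -0.34 to 0.25), and 3 of 12 libraries correlated best with their own number. The deviations are from means of 3 libraries, so this check cannot exclude a pairing. With the replicate block the counts were 2, 3, 4, 0, 0 and 1. Low counts limit Btc, Areg, Epgn and Nrg4.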
